A study of Saccharomyces cerevisiae with 17 samples.

Results

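The net change in RNA levels over a whole wine fermentation was measured in BM45, an industrial wine strain of the yeast Saccharomyces cerevisiae, by setting day 14, its late stationary phase, against day 2, its exponential phase. The comparison took 3 arrays of day 14 and 2 arrays of day 2, which are all arrays of those labels, out of 17 in the series, and covered 5449 S. cerevisiae genes. All cultures grew micro-aerobically in Colombar grape must, and the other arrays used for reference were 3 of BM45 at day 5, its early stationary phase, and 3 each of a second industrial strain, VIN13, at days 14 and 2. No genetic change or drug was applied, so the groups differ by day and strain, and the arrays were Affymetrix oligonucleotide arrays hybridised with labelled total RNA. Nothing in the labels says whether arrays of a group came from separate fermentations, so p-values measure the spread between these arrays, which may be technical, and the small number of arrays limits their precision.

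During a wine fermentation yeast first divides on the sugar and nitrogen of the must, then stops dividing while sugar is still being turned into ethanol, and finally stays for days in spent, alcoholic medium. Growing yeast devotes much of its transcription to ribosomes, amino acids and membrane sterols, whose synthesis needs molecular oxygen. Resting yeast is known for induced chaperones, reserve carbohydrates and the genes that serve respiration and the use of ethanol, acetate and other carbon sources with few carbon atoms, which glucose otherwise represses.

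Levels are given as the deposited intensity of a gene's probe set, which is not comparable between genes, and differences as log2(intensity + 16) at day 14 minus day 2, so that a negative value is a lower level at day 14. A gene was called when its p-value in limma, a linear model fitted to all genes at once, was under 0.05 after Benjamini-Hochberg adjustment. Intensities are listed in the order of replicates 1, 2 and 3 of day 14 and of replicates 2 and 4 of day 2. Of the arrays compared, day 2 replicate 4 stood apart. The ratio of signal from the 3' and 5' ends of the actin gene ACT1, which grows as RNA is broken, was 5.33 on day 2 replicate 4, against 2.29 on day 2 replicate 2, and 1.45, 1.45 and 1.39 on the 3 arrays of day 14. Other control genes did not all rank the remaining arrays alike. For WBP1 the ratio was 33.6 on replicate 4, 6.16 on replicate 2 and 5.90, 6.17 and 4.74 at day 14. For EAF5 it was 9.92 on replicate 4, 2.67 on replicate 2 and 4.64, 3.39 and 6.61 at day 14. Replicate 4 lay below replicate 2 for 3622 of all 5449 genes (66.5%), with a median difference of -0.17, and its part in the results was not tested. Lists are therefore also given without replicate 4, as are genes for which leaving it out ended the call or moved the value by over 1.5 times. This leaves a single day 2 array that is assumed to vary like the other groups. A probe set under an intensity of 100.7, the 95th percentile of probe sets made for Schizosaccharomyces pombe, counts as below background. Where the mean of a day lay below it, a fold is given only as a lower bound. A single array below it does not by itself change how a difference is given.

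Most of the transcriptome differed between the ends of the fermentation. Of 5449 genes 1571 rose (28.8%) and 2538 fell (46.6%), and the median over all genes was -0.24. Counts and medians of the lists below are to be read beside these shares and this median. Changes of at least 2-fold were called for 812 genes that rose (14.9%) and 1450 that fell (26.6%), and of at least 4-fold for 197 and 319. The 3 day 14 arrays lay above both day 2 arrays for 1777 genes (32.6%) and below both for 2746 (50.4%). Without replicate 4, 1260 genes rose and 2599 fell. Among the genes changed at least 2-fold, 752 of the 812 that rose and 1448 of the 1450 that fell were still called in the same direction without replicate 4. Their size depended on that array unequally. The median change of the 812 was 1.54 with it and 1.27 without it, and that of the 1450 was -1.50 with it and -1.55 without it. Median gene intensity was 867 to 890 on the day 14 arrays, against 1077 and 1150 on the day 2 arrays. Centring each array on its median moved the median gene by 0.33, to 0.09, and gave 2251 genes that rose and 2032 that fell. Quantile normalization gave 1956 and 2141. Small changes are therefore relative to how the arrays are scaled. In RNA of whole cultures, a change in the share of cells that make a transcript and a change in its amount per cell cannot be told apart. On the first axis of a principal component analysis of the 8 BM45 arrays, which held 72.6% of their variance, the 3 day 14 arrays lay apart from both day 2 arrays.

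**Figure D1:**
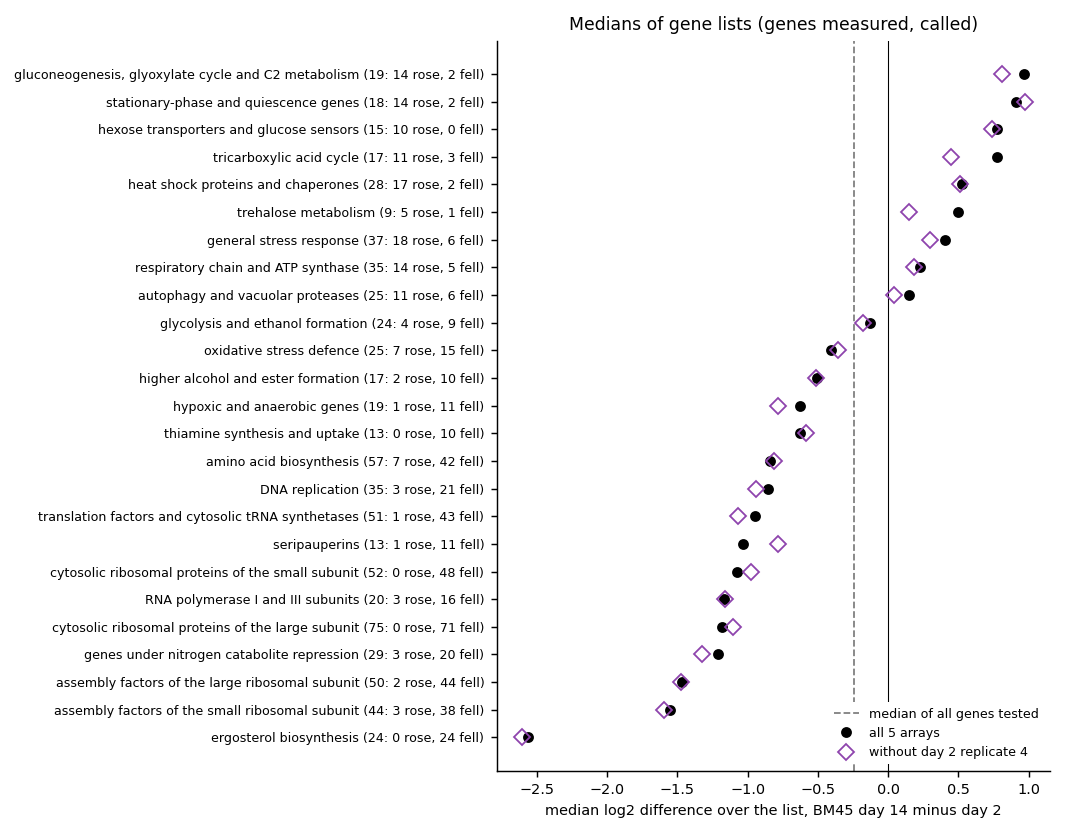
Median log2 difference, BM45 day 14 minus day 2, over the measured genes of 25 gene lists (filled circles, 3 against 2 arrays; open diamonds, without day 2 replicate 4), with the number measured and called beside each name and the median of all genes, -0.24, as a dashed line. Ergosterol biosynthesis lies lowest at -2.56, ribosome assembly, nitrogen catabolite repression and ribosomal proteins lie below -1, while the lists of gluconeogenesis, stationary phase and hexose transport lie highest, and the diamonds of the tricarboxylic acid cycle and trehalose lie well left of their circles.

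The route from acetyl-CoA to ergosterol, the main sterol of yeast membranes, showed the lowest median of the lists examined. All 24 measured genes of the list fell, 23 of them at least 2-fold, with a median of -2.56 against -0.24 for all genes, and the same 24 fell without replicate 4 (median -2.60). In each of them the 3 day 14 arrays lay below both day 2 arrays, as they did in 50.4% of all genes. The list's largest falls were those of ERG13 and MVD1. ERG13, whose product HMG-CoA synthase makes HMG-CoA from acetyl-CoA, had intensities of 568, 552 and 615 in the day 14 arrays, against 13122 and 10953 in the day 2 arrays. All 3 late arrays stood more than an order of magnitude lower, and the log2 difference was -4.34 ± 0.17 (SE; limma, adjusted p 7.81e-11), or 20.2-fold. MVD1, the mevalonate pyrophosphate decarboxylase, had 634, 391 and 608 at day 14, against 12937 and 8994 at day 2, a difference of -4.30 ± 0.22 (adjusted p 4.26e-10). ERG12, the mevalonate kinase, had 374, 384 and 338 at day 14, against 5671 and 4597 at day 2, a difference of -3.75 ± 0.15. ERG8, the next kinase, had 1183, 1135 and 1223 at day 14, against 13454 and 13884 at day 2, a difference of -3.52 ± 0.14. The choice of MVD1 and ERG12 required arrays that do not overlap between the days, and those of ERG8 did not overlap either.

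The pair of HMG-CoA reductases, which catalyse the step that limits flux through the route, differed from each other in size and timing. HMG1 had 1381, 1424 and 1427 at day 14, against 14611 and 15192 at day 2, a difference of -3.39 ± 0.14 (adjusted p 8.38e-11). HMG2 had 3251, 3060.0 and 3386 at day 14, against 5939.8 and 5716 at day 2, a difference of -0.85 ± 0.17 (adjusted p 4.14e-04). Both fell, HMG1 by more, and its whole change lay before day 5, with -3.38 from day 2 to day 5 and -0.01 from day 5 to day 14. Among later enzymes ERG6, the methyltransferase specific to fungal sterols, had 974, 1002 and 912 at day 14, against 12599 and 15011 at day 2, a difference of -3.82 ± 0.15. ERG7, the lanosterol synthase, had 539, 561 and 590.1 at day 14, against 7096 and 6069.5 at day 2, a difference of -3.51 ± 0.13, and ERG1, the squalene epoxidase that uses molecular oxygen, 1417, 1361 and 1536 at day 14, against 12454 and 11471 at day 2, a difference of -3.04 ± 0.11. The days did not overlap in any of them, which the choice of ERG6 had required, and ERG6 fell as far as the kinase ERG12. The smallest falls past HMG2 were those of ERG25 (-1.16), ERG28 (-1.22), ERG4 (-1.27), ERG11 (-1.27) and NCP1 (-1.51), of which ERG11 and ERG25 encode oxygen-dependent demethylation enzymes and NCP1 the reductase that serves ERG11. The log2 differences of single enzymes thus ran from -4.34 to -0.85.

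**Figure D2:**
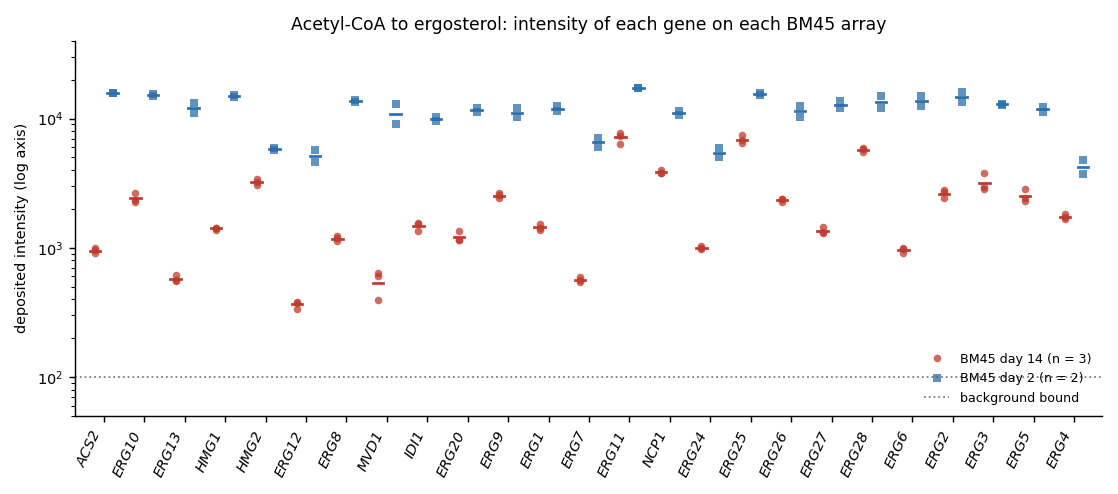
Deposited intensity (log axis) of ACS2 and of the 24 genes of the ergosterol list in pathway order from left to right, with 1 point per array of BM45 day 14 (circles, n = 3) and day 2 (squares, n = 2), bars at the group mean on the log2 scale, and the background bound of 100.7 as a dotted line. In every gene all day 14 points lie below all day 2 points, with the widest gaps at ERG13, MVD1, ACS2, ERG6 and ERG12, and the narrowest at HMG2, ERG25, ERG28, ERG4 and ERG11.

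Supply of the precursor and handling of sterols moved with the route only in part. ACS2, the acetyl-CoA synthetase that yeast needs on glucose, had 957, 991 and 905 in the day 14 arrays, against 15877 and 15833 in the day 2 arrays, a difference of -4.04 ± 0.17 (adjusted p 8.16e-11). ACS1, the synthetase repressed by glucose, had 4846, 4957 and 4901 at day 14, against 2793 and 1967 at day 2, and rose by 1.06 ± 0.17 (adjusted p 3.44e-05; 0.81 without replicate 4). The 2 synthetases thus moved in opposite directions. The days overlapped in neither, which the choice of ACS2 had required. ALD6, the cytosolic aldehyde dehydrogenase that makes acetate for ACS2, had 3584, 3138 and 3202 at day 14, against 8739 and 6624 at day 2, a difference of -1.20 ± 0.12. Of 14 genes of sterol uptake, sterol esters and their regulators 7 fell, a share near the 46.6% of all genes, and 1 rose (median -0.60). Without replicate 4, 9 fell and the other 5 were not called (median -1.02). YEH1, a steryl ester hydrolase, had 1513, 1532 and 1889.9 at day 14, against 10274 and 8398 at day 2, a difference of -2.49 ± 0.16, and HES1, an oxysterol-binding protein, 941, 976 and 976 at day 14, against 5056 and 4188 at day 2, a difference of -2.24 ± 0.15. The gene that rose was UPC2, a transcription factor that activates ergosterol genes, with 3782, 4141 and 3382 at day 14, against 1993 and 1429 at day 2, a difference of 1.15 ± 0.36 (adjusted p 0.00872; 0.91 without replicate 4, adjusted p 0.0795; 0.11 with the ACT1 ratio as a covariate). Its paralogue ECM22 had 1776, 1726 and 1663 at day 14, against 2653 and 2623 at day 2, a difference of -0.61 ± 0.12. Of 13 genes of fatty acid synthesis 9 fell and 1 rose, with a median of -0.33, and 7 fell and 1 rose without replicate 4. Under centring 5 fell and 3 rose. ELO1, an elongase, fell most, with 2832, 2789.6 and 3055 at day 14, against 11140.5 and 10236 at day 2 (-1.88 ± 0.10). OLE1, the sole desaturase of yeast, had 13774, 14116 and 14084 at day 14, against 14958 and 15834 at day 2 and a difference of -0.14 ± 0.08, which was not called (adjusted p 0.144).

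Genes of ribosome production were lower at day 14. Of 44 assembly factors of the small ribosomal subunit 38 fell and 3 rose (median -1.55; -1.60 without replicate 4), and of 50 of the large subunit 44 fell and 2 rose (median -1.47; -1.48 without it). DHR2, an RNA helicase of the small subunit processome, had 72.8, 73.3 and 51.8 at day 14, against 809 and 739.9 at day 2, at least 6.77-fold lower (adjusted p 3.19e-10), since all 3 late arrays were below background. UTP8, a processome component, likewise had 52.9, 49.6 and 51.5 at day 14, against 540.2 and 526 at day 2, at least 4.71-fold lower. YTM1, a factor of large subunit assembly, stayed above background with 202, 162 and 171 at day 14, against 1633 and 1659.5 at day 2, a difference of -3.10 ± 0.18. NIP7, another, had 338, 267 and 362 at day 14, against 2173 and 2127 at day 2, a difference of -2.69 ± 0.25. Day 14 arrays of all these genes lay far below both day 2 arrays. Of 20 subunits of RNA polymerases I and III, which transcribe ribosomal and transfer RNA, 16 fell and 3 rose (median -1.17; -1.16 without replicate 4). RPA49 of polymerase I had 148, 141 and 171 at day 14, against 1022 and 838 at day 2, a difference of -2.48 ± 0.20. The 3 that rose were RPA14, RPO31 and RET1, by 0.76, 0.50 and 0.24, and without replicate 4 RPO31 alone was still called higher, RPA14 being at 0.53 and RET1 at 0.21.

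The structural proteins of cytosolic ribosomes also fell. Of 75 large subunit proteins 71 fell and the other 4 were not called (median -1.18; -1.10 without replicate 4), and of 52 small subunit proteins 48 fell and the other 4 were not called (median -1.08; -0.98 without it). Many of these genes are near-identical pairs whose probe sets may share signal. RPL13A fell most on the large subunit list, with 495, 495 and 493 at day 14, against 2873 and 2479 at day 2, a difference of -2.40 ± 0.14 (adjusted p 1.98e-09). RPL21B had 1700.0, 1679.9 and 1722 at day 14, against 7847 and 7879.8 at day 2, a difference of -2.20 ± 0.12. RPL8A had 1884, 1900.0 and 1768 at day 14, against 8032 and 7141 at day 2, a difference of -2.02 ± 0.14. None of the 3 overlapped between the days. Of 51 translation factors and cytosolic tRNA synthetases 43 fell (median -0.94; -1.07 without replicate 4). KRS1, the lysyl-tRNA synthetase, had 729, 742 and 727 at day 14, against 7280.0 and 6272 at day 2, a difference of -3.18 ± 0.15 (adjusted p 2.79e-10), and GCN3, a regulatory subunit of the initiation factor eIF2B, 195, 184 and 196 at day 14, against 1461 and 1255 at day 2, a difference of -2.72 ± 0.15. The 1 that rose was SUI1, initiation factor eIF1, by 0.33 ± 0.11, which was not called without replicate 4 (0.29, adjusted p 0.0651). Mitochondrial ribosomal proteins were divided, with 15 of 65 higher and 29 lower and a median of -0.23, next to the all-gene median of -0.24, and of 0.10 under centring. Without replicate 4, 12 were higher and 25 lower.

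Genes held in check by good nitrogen sources, a regulation called nitrogen catabolite repression, were lower at day 14. Of 29 such genes 20 fell and 3 rose, with a median of -1.21 (-1.32 without replicate 4, 21 lower). The deepest falls were those of allantoin degradation, by which yeast draws nitrogen from purine breakdown products. DAL1, the allantoinase of its first step, had 26.1, 48.7 and 11.1 in the day 14 arrays, against 1103 and 864 in the day 2 arrays, at least 8.50-fold lower (adjusted p 1.67e-09). DAL7, a malate synthase of the same gene cluster, had 296, 361 and 285 at day 14, against 5732 and 6321 at day 2, a difference of -4.20 ± 0.17. DAL2, the allantoicase, had 339.5, 257 and 240.4 at day 14, against 3904 and 3498 at day 2, a difference of -3.67 ± 0.21. The late arrays of all 3 genes lay below the day 2 arrays.

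These genes are neighbours. In the RefSeq annotation of the assembly R64, DAL1, DAL4, DAL2, DCG1, DAL7 and DAL3 follow each other on chromosome IX with no other protein-coding gene between them, and YVH1, a protein phosphatase gene, lies beside DAL1. YVH1 was itself among the 15 largest decreases of the genome, with 77.5, 70.5 and 47.4 at day 14, against 832 and 1152 at day 2, at least 8.53-fold lower (adjusted p 1.43e-09). DAL4, the allantoin permease, was at least 3.90-fold lower with 60.4, 33.0 and 43.1 at day 14, against 543 and 355 at day 2. DCG1 was at least 5.33-fold lower with 29.3, 54.3 and 40.9 at day 14, against 552 and 664 at day 2, and DAL3, the ureidoglycolate lyase, had 717, 724 and 701 at day 14, against 3252 and 3621 at day 2, a difference of -2.24 ± 0.12. All 7 adjacent genes from YVH1 to DAL3 were called lower. Their days did not overlap, which the choice of YVH1, DAL1, DAL2 and DAL7 had required. The flanking genes, looked up after those values were seen, were MND2 on the YVH1 side, with a difference of -0.17 ± 0.13 that was not called (adjusted p 0.222), and MGA2 on the DAL3 side, with -0.34 ± 0.10 (adjusted p 0.00517; -0.01 under centring).

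Permeases and regulators of the nitrogen list moved with the allantoin genes, with exceptions. GAP1, the general amino acid permease, had 767, 727 and 627 at day 14, against 8235 and 7596 at day 2, a difference of -3.46 ± 0.13 (adjusted p 7.76e-11). DAL80, a repressor of the list's genes, had 834, 823 and 659 at day 14, against 3246 and 3399 at day 2, a difference of -2.09 ± 0.15. UGA4, the permease for gamma-aminobutyrate, had 662, 748 and 503 at day 14, against 4467 and 2502 at day 2, a difference of -2.38 ± 0.26. In all 3 the late arrays lay below both day 2 arrays. The ammonium permeases parted, with MEP2 at 4303, 4065 and 3354 at day 14, against 10708 and 9729 at day 2 (-1.39 ± 0.14) and MEP1 at 3223, 3353 and 2868 at day 14, against 1703 and 1126 at day 2 (1.17 ± 0.21; 0.88 without replicate 4). The other 2 genes of the list that rose were GDH2, the glutamate dehydrogenase that releases ammonium, and URE2, a repressor of the pathway, each by 0.43. Not every gene of the list that rose kept its call without replicate 4. GLN3, the activator of the list's genes, had 250.1, 221 and 306 at day 14, against 324 and 66.7 at day 2, with day 2 arrays on both sides of the late ones, and its difference of 0.70 ± 0.39 was not called (adjusted p 0.113).

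**Figure D3:**
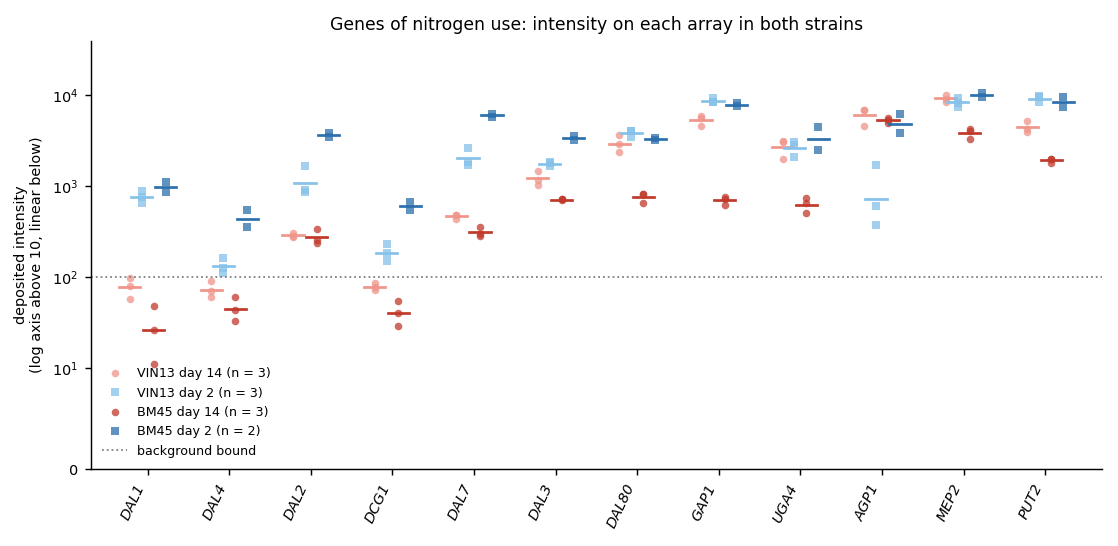
Deposited intensity (log axis above 10, linear below) of 12 genes of nitrogen use, with the adjacent genes DAL1 to DAL3 at the left, with 1 point per array of VIN13 day 14 (pale circles), VIN13 day 2 (pale squares), BM45 day 14 (dark circles) and BM45 day 2 (dark squares), bars at group means on the log2 scale, and the background bound of 100.7 as a dotted line. BM45 day 14 lies below BM45 day 2 in every gene but AGP1, and the VIN13 points of GAP1, UGA4, DAL80 and MEP2 lie closer together.

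Most genes of amino acid synthesis fell, while those of uptake were divided. Of 57 biosynthetic genes 42 fell and 7 rose (median -0.84; -0.81 without replicate 4). HIS7 of histidine synthesis had 161, 177 and 137 at day 14, against 871 and 978 at day 2, a difference of -2.43 ± 0.14. TRP2, the anthranilate synthase of tryptophan synthesis, had 311, 307 and 330.4 at day 14, against 1565 and 1499.6 at day 2, a difference of -2.22 ± 0.14, and ARO7, the chorismate mutase, 281, 299 and 364 at day 14, against 1554 and 1349.7 at day 2, a difference of -2.16 ± 0.15. Against them HIS4, also of histidine synthesis, had 6213, 6036 and 6035 at day 14, against 1935 and 1347 at day 2 and rose by 1.91 ± 0.15 (adjusted p 3.33e-08; 1.65 without replicate 4). LYS20, a homocitrate synthase of lysine synthesis, had 10954, 11033 and 10841 at day 14, against 3767 and 3761 at day 2, a difference of 1.54 ± 0.11. Enzymes of a single amino acid could thus move apart. The NADPH-dependent glutamate dehydrogenases did so as well, a pair singled out after their values were seen. GDH3 had 1074, 1121 and 1043 at day 14, against 299 and 281 at day 2, a difference of 1.84 ± 0.15, and GDH1 had 1111, 989 and 1071 at day 14, against 4101 and 3239 at day 2, a difference of -1.77 ± 0.23. Of 22 amino acid permeases 11 rose and 6 fell (median 0.30), and 10 rose and 10 fell without replicate 4 (median 0.02). AGP2, a plasma membrane permease and regulator, had 974, 935 and 917 at day 14, against 84.6 and 28.4 at day 2, at least 8.21-fold higher (adjusted p 2.97e-08). BAP2, a permease for branched-chain amino acids, had 2508, 2559 and 2687 at day 14, against 551 and 224 at day 2, a difference of 2.82 ± 0.40 (2.20 without replicate 4).

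Of 35 genes of DNA replication 21 fell and 3 rose, where 46.6% of all genes fell (median -0.86; -0.94 without replicate 4). Under centring 20 fell and 11 rose, and under quantile normalization 19 and 10. CDC45, an initiation factor that travels with the replicative helicase, had 169.7, 147 and 174 at day 14, against 719 and 780.2 at day 2, a difference of -2.09 ± 0.15. POL12, a subunit of DNA polymerase alpha, had 155, 140.3 and 209 at day 14, against 850.5 and 583 at day 2, a difference of -1.99 ± 0.21, and MCM5, a helicase subunit, 153, 135 and 126 at day 14, against 492 and 523 at day 2, a difference of -1.77 ± 0.14. The 3 that rose were RAD27, the flap endonuclease, with 1387, 1544 and 1325 at day 14, against 761 and 583 at day 2 (1.07 ± 0.16), MCM3, another helicase subunit, by 0.85, and RFA1, which binds single-stranded DNA, by 0.73. Of 23 cyclins and cell cycle regulators 11 fell and 5 rose, a share near that of all genes. This count depended on the setting, and was 13 and 2 without replicate 4, 8 and 8 without replicate 2, 8 and 7 under centring, and 11 and 10 under quantile normalization. CLN3, the cyclin that starts the cycle, had 373, 397 and 309 at day 14, against 1427 and 642 at day 2, a difference of -1.38 ± 0.31 (-0.81 without replicate 2), and CDC28, the cyclin-dependent kinase, 580.0, 509 and 512 at day 14, against 1481 and 1242 at day 2, a difference of -1.32 ± 0.17. Among 9 histone genes 4 fell and 2 rose, near the shares of all genes, 46.6% and 28.8%. The 4 that fell were core histones. Of the 2 that rose, HHO1, the linker histone, had 1966, 1859 and 2016 at day 14, against 868 and 614 at day 2 (1.40 ± 0.19). The other, HTZ1, the variant of histone H2A, had 1503, 1487 and 1591 at day 14, against 970.4 and 1094 at day 2 (0.56 ± 0.12). The same numbers fell and rose without replicate 4.

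Of 19 genes associated with low oxygen 11 fell and 1 rose, where 46.6% of all genes fell (median -0.63; -0.78 without replicate 4). Under centring 7 fell, with a median of -0.29, and under quantile normalization 8. TIR1, a cell wall mannoprotein, had 4802, 5109 and 4873 at day 14, against 13031 and 11482 at day 2, a difference of -1.31 ± 0.17 (adjusted p 3.94e-06), and ANB1, the hypoxic form of the translation factor eIF5A, 3868, 4216 and 4138 at day 14, against 8102 and 9141 at day 2, a difference of -1.08 ± 0.12. The 1 that rose was FET4, a low-affinity iron transporter, with 1897, 1948 and 1987 at day 14, against 1325 and 1013 at day 2 (0.74 ± 0.14). Of 13 seripauperins, a family of near-identical cell wall proteins whose probe sets may share signal, 11 fell (median -1.04; -0.78 without replicate 4). PAU7 had 1555, 1663 and 1410.5 at day 14, against 6221 and 5468 at day 2, a difference of -1.91 ± 0.24, and PAU5 7054, 6830.1 and 5751 at day 14, against 16091 and 15016 at day 2, a difference of -1.25 ± 0.12. PAU21 alone rose, with 426, 504 and 344 at day 14, against 134 and 47.3 at day 2, of which only replicate 2 of day 2 was above background. Of 13 genes of thiamine synthesis and uptake 10 fell and the other 3 were not called, and 11 fell without replicate 4. THI13, one of several near-identical genes, had 1807, 2076 and 1699 at day 14, against 11432 and 10414 at day 2, a difference of -2.55 ± 0.14. The median of the list was -0.63, and under centring 6 of its genes fell and 1 rose.

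Genes for the use of carbon sources other than glucose rose on 1 list but not on another. Of 17 genes of peroxisomal fatty acid oxidation 4 rose and 3 fell, where 28.8% and 46.6% of all genes did. The median of that list was 0.07, and -0.19 without replicate 4. Of 19 genes of gluconeogenesis, the glyoxylate cycle and acetate use 14 rose and 2 fell (median 0.97; 0.81 without replicate 4, 13 higher). ADR1 and CAT8, both transcription factor genes, showed the largest rises of the list. ADR1, an activator of genes for ethanol and fatty acid use, had 3709.9, 3981 and 4124 in the day 14 arrays, against 580.5 and 167 in the day 2 arrays, a difference of 3.58 ± 0.43 (adjusted p 2.05e-06; 2.73 without replicate 4). CAT8, the activator of gluconeogenesis, had 3019, 3157 and 3041 at day 14, against 489.9 and 355 at day 2, a difference of 2.83 ± 0.22 (adjusted p 2.49e-08; 2.61 without replicate 4). SIP4, a related activator, had 360.3, 438 and 445 at day 14, against 144 and 60.8 at day 2, with only replicate 2 of day 2 above background, and its difference without replicate 4 was 1.42. Day 2 replicate 4 was the lowest array in all 3. Both day 2 arrays lay under every late array, which the choice of ADR1 had required. CRC1, the mitochondrial carnitine carrier, had 2498, 2684 and 2649.8 at day 14, against 786 and 309 at day 2, a difference of 2.36 ± 0.33 (1.71 without replicate 4). Enzymes of the list changed less. ICL1, the isocitrate lyase, had 531, 541 and 592 at day 14, against 365 and 206 at day 2 (0.97 ± 0.22; 0.58 without replicate 4), PCK1, the phosphoenolpyruvate carboxykinase, 1171, 1008 and 1231 at day 14, against 611 and 567 at day 2 (0.93 ± 0.17), and MLS1, the malate synthase, 2346, 2234 and 2355 at day 14, against 1129 and 1489 at day 2 (0.83 ± 0.14). FBP1, the fructose bisphosphatase, fell instead, with 107, 111 and 130.2 at day 14, against 252 and 273 at day 2 (-1.08 ± 0.19, adjusted p 8.25e-05). IDP2, the cytosolic isocitrate dehydrogenase, was the other that fell, with 661, 676 and 714 at day 14, against 1437 and 1978 at day 2 (-1.28 ± 0.18).

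Of 15 hexose transporters and glucose sensors 10 rose and the other 5 were not called (median 0.78). Without replicate 4, 9 rose and 2 fell (median 0.74). Of the list 5 genes lay below background on both days, and several are near-identical. HXT5, a transporter of resting cells, had 5702, 6017 and 6019 in the day 14 arrays, against 656 and 215 in the day 2 arrays, a difference of 3.91 ± 0.36 (adjusted p 1.22e-07; 3.14 without replicate 4). HXT7, a high-affinity transporter, had 10133, 10734 and 10322 at day 14, against 5884 and 6235 at day 2 and rose by 0.78 ± 0.09. HXT3, the transporter used at high sugar, had 11953, 11827 and 11678 at day 14, against 13243 and 13164 at day 2, and its difference of -0.16 ± 0.11 was not called (adjusted p 0.199). All 3 kept intensities far above background at day 14. Glycolysis as a whole lay near the all-gene median, with 4 of 24 genes higher, 9 lower and a median of -0.13, which became 0.20 under centring, and 1 rose and 7 fell without replicate 4. ADH2, the alcohol dehydrogenase that consumes ethanol, had 622, 603 and 757 at day 14, against 135 and 86.8 at day 2, a difference of 2.43 ± 0.17 (adjusted p 9.97e-09). ADH1, which forms ethanol, had 11939, 12033 and 12112 at day 14, against 13607 and 13986 at day 2 and a difference of -0.20 ± 0.08 (adjusted p 0.0388) that was not called without either day 2 array and was 0.14 under centring. The pyruvate decarboxylase genes PDC5 and PDC6 fell, PDC5 with 2874, 3065 and 3046 at day 14, against 9808 and 5425 at day 2 (-1.28 ± 0.18), while PDC1, the main one, had 12635, 13056 and 12886 at day 14, against 14289.5 and 13917 at day 2 and was not called (-0.13 ± 0.08, adjusted p 0.124).

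Of 17 genes of the tricarboxylic acid cycle 11 rose and 3 fell (median 0.77), but replicate 4 was low on this list: without it 8 rose and the median was 0.45. CIT3, a mitochondrial citrate synthase, held in both, with 819, 759 and 822 at day 14, against 163 and 128 at day 2, a difference of 2.34 ± 0.12 (2.18 without replicate 4). SDH2, the iron-sulphur subunit of succinate dehydrogenase, had 9479, 9107 and 9569 at day 14, against 3808 and 1601 at day 2, a difference of 1.92 ± 0.33 (1.30 without replicate 4). KGD1, the first subunit of the 2-oxoglutarate dehydrogenase complex, had 7642, 7052 and 7572 at day 14, against 3389 and 2083 at day 2, a difference of 1.48 ± 0.18 (1.13 without replicate 4). Both subunits of succinyl-CoA ligase went the other way. LSC2 had 405, 436 and 420.1 at day 14, against 2077 and 2187 at day 2, a difference of -2.30 ± 0.14 (adjusted p 3.06e-09), and LSC1 had 2136, 2119 and 2193 at day 14, against 3809.8 and 3204 at day 2, a difference of -0.70 ± 0.16. Late and early arrays of LSC2 did not overlap. The respiratory chain and ATP synthase were divided, with 14 of 35 genes higher and 5 lower, where 28.8% and 46.6% of all genes were. Their median was 0.23, and 0.18 without replicate 4. The largest rises on this list were those of the external NADH dehydrogenases, NDE1 with 1724, 1642 and 1771 at day 14, against 398 and 478 at day 2 (1.93 ± 0.20) and NDE2 with 1602, 1662 and 1696 at day 14, against 452 and 533 at day 2 (1.72 ± 0.17). CYC1, the main cytochrome c, fell, with 2800.1, 2750.3 and 3092 at day 14, against 6527 and 6473 at day 2 (-1.17 ± 0.11).

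Most chaperone genes rose. Of 28 heat shock proteins and chaperones 17 rose and 2 fell (median 0.53; 0.51 without replicate 4, 18 higher). SSA3, a stress-induced Hsp70, had 4445, 4139.9 and 3905 at day 14, against 1067 and 905 at day 2, a difference of 2.06 ± 0.22 (adjusted p 5.10e-07). SSE2, a nucleotide exchange factor of Hsp70, had 10121, 10431 and 10405 at day 14, against 3244 and 2006 at day 2, a difference of 2.01 ± 0.16. FES1, another exchange factor, had 9645, 9661 and 9187 at day 14, against 3183 and 2679.6 at day 2, a difference of 1.70 ± 0.13. All 3 were high in every late array. The 2 genes that fell were SSB1 and SSB2, near-identical Hsp70 genes whose products sit on translating ribosomes. SSB2 had 1299.7, 1368 and 1520.3 at day 14, against 7809 and 6075 at day 2, a difference of -2.29 ± 0.16 (adjusted p 9.06e-09), and SSB1 3356, 3387 and 3286 at day 14, against 12200.3 and 12212 at day 2, a difference of -1.86 ± 0.13 (adjusted p 8.63e-09). 2 chaperones best known from heat shock, named after their values were seen, were not called: HSP26 had 15968, 16249 and 16196 at day 14, against 17223 and 16925 at day 2 (-0.08 ± 0.08, adjusted p 0.340) and HSP104 5577, 5223 and 4897 at day 14, against 5311 and 5050.0 at day 2 (0.01 ± 0.10, adjusted p 0.912).

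Of 37 genes of the general stress response 18 rose and 6 fell (median 0.41; 0.29 without replicate 4, 14 higher). MSN4, an activator of that response, had 8839.8, 8746 and 9508 in the day 14 arrays, against 1506 and 646 in the day 2 arrays, a difference of 3.17 ± 0.38 (adjusted p 1.94e-06; 2.57 without replicate 4). Its partner MSN2 had 2091, 1912 and 2236 at day 14, against 2514 and 1725 at day 2, with overlapping arrays, and was not called (adjusted p 0.984). XBP1, a repressor of resting cells, had 931, 1041 and 949 at day 14, against 154 and 50.8 at day 2, with only replicate 2 of day 2 above background, and its difference without replicate 4 was 2.54. USV1, a transcription factor of growth on poor carbon sources, had 5278, 5686 and 6130.2 at day 14, against 445 and 249 at day 2, a difference of 4.03 ± 0.38 (3.63 without replicate 4). GIS1, which acts on genes of the diauxic shift, had 6160.4, 6595 and 6749 at day 14, against 1866 and 859 at day 2, a difference of 2.34 ± 0.24 (1.79 without replicate 4). HBT1, whose product is needed for cell shape in mating, had 1446, 1404 and 1338 at day 14, against 339 and 142 at day 2, a difference of 2.58 ± 0.31 (1.99 without replicate 4). Replicate 4 of day 2 was the lowest array in each of these 5 called genes. Both day 2 arrays lay below every late one, which the choice of USV1 had required. CTT1, the cytosolic catalase, fell, with 4375, 4324 and 5075 at day 14, against 12044 and 10079.9 at day 2, a difference of -1.26 ± 0.13 (adjusted p 3.51e-07), and HSP12 had 10898, 10870.5 and 10238 at day 14, against 10414 and 12508 at day 2 and was not called (-0.10 ± 0.12, adjusted p 0.456). The other catalase, CTA1 of the peroxisome, rose, with 6452, 6324 and 6589 at day 14, against 847 and 639 at day 2, a difference of 3.11 ± 0.14 (adjusted p 2.05e-10).

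Genes named for stationary phase and quiescence rose, 14 of 18 with 2 lower and a median of 0.91 (0.97 without replicate 4). FMP45, SSA3 and SDS24 had the largest rises on the list. FMP45, a protein of membrane eisosomes, was at least 2.06-fold higher with 226, 261 and 192 at day 14, against 32.3 and 6.95 at day 2. SPG1 had 11305, 12236 and 12155 at day 14, against 5185 and 5429.9 at day 2, a difference of 1.16 ± 0.12 (adjusted p 3.33e-07), and MOH1 6425, 6471 and 6931 at day 14, against 2261 and 1985 at day 2, a difference of 1.63 ± 0.14. The 2 that fell, SNO3 and SNZ3 of vitamin B6 synthesis, have near-identical copies elsewhere in the genome, and SNZ3 had 806, 757 and 783 at day 14, against 1615 and 1866 at day 2 (-1.13 ± 0.12). Its relative SNZ1 had 2549, 2291 and 2309 at day 14, against 1169 and 994 at day 2 and rose by 1.13 ± 0.14. Genes of reserve carbohydrates were divided: 5 of 9 trehalose genes rose, 3 without replicate 4, and 5 of 10 glycogen genes, 2 without it. Their medians were 0.50 and 0.29, or 0.15 and 0.11 without replicate 4. Of all genes 28.8% rose and 46.6% fell. GAC1, which directs phosphatase to glycogen synthase, had 9713, 10013 and 10170.3 at day 14, against 2534 and 1415 at day 2, a difference of 2.39 ± 0.27 (1.97 without replicate 4). TPS2, the trehalose phosphatase, had 7905, 7979 and 8053 at day 14, against 3918 and 2504 at day 2, a difference of 1.34 ± 0.19 (1.02 without replicate 4). GPH1, the glycogen phosphorylase, fell, with 2449, 2567 and 2173 at day 14, against 5111 and 3382 at day 2 (-0.79 ± 0.17; -0.50 without replicate 2). Of 25 genes of oxidative stress defence 15 fell and 7 rose, so that the share that rose was near that of all genes. The median of this list was -0.41, and -0.36 without replicate 4. Under centring 8 fell and 9 rose. SOD2, the mitochondrial superoxide dismutase, had 3488, 3219 and 3615 at day 14, against 11014 and 9407 at day 2, a difference of -1.56 ± 0.22, and TSA1, the main peroxiredoxin, 6446, 5696 and 5838 at day 14, against 15351 and 16482 at day 2, a difference of -1.41 ± 0.11.

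Several of the largest single rises depended on day 2 replicate 4. DHH1, an RNA helicase that activates decapping, had 1995, 2599 and 2459 at day 14, against 171 and 0.0597 at day 2 (adjusted p 3.96e-05). Replicate 4 was near 0, so that only 1 day 2 array measured the gene, and the difference without replicate 4 was 3.65. DED1, an RNA helicase of translation initiation, had 3470.3, 4397 and 4083 at day 14, against 669 and 47.5 at day 2, a difference of 4.25 ± 0.82 that became 2.54 without replicate 4. SIP5 had 1926, 1914 and 2201 at day 14, against 513 and 31.9 at day 2, a difference of 3.67 ± 0.74 that became 1.94 without it (adjusted p 0.00868). The choice of these 3 genes required early arrays below the late ones, but the early arrays differed widely from each other. In all 3, replicate 4 of day 2 was below background. Others depended less on it. YJL047C-A, an uncharacterised gene, had 3291, 3381 and 4395 at day 14, against 179 and 179 at day 2, a difference of 4.23 ± 0.29 (adjusted p 7.78e-09; 4.24 without replicate 4). YDL114W, also uncharacterised, had 6359, 6542 and 6495 at day 14, against 492 and 277 at day 2, a difference of 4.07 ± 0.22 (3.67 without replicate 4). GIT1, a permease for glycerophosphoinositol, had 3814, 3949 and 3715 at day 14, against 306 and 73.9 at day 2, a difference of 4.50 ± 0.38 (3.57 without replicate 4). In these 3 both early arrays were low, and replicate 4 of GIT1 was below background. YNL194C, a membrane protein of eisosomes, had 5653, 6051 and 5822 at day 14, against 609.6 and 288 at day 2, a difference of 3.75 ± 0.29 (3.23 without replicate 4).

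The deepest falls outside the groups above were found in genes of varied function. GFD2 had 94.8, 98.2 and 81.8 at day 14, against 2688 and 1878 at day 2, at least 19.4-fold lower (adjusted p 7.81e-11). MSC7 had 541, 508 and 482 at day 14, against 9724 and 9324 at day 2, a difference of -4.18 ± 0.13 (adjusted p 1.97e-11). DUS3, a dihydrouridine synthase of transfer RNA, had 14.5, 28.1 and 16.3 at day 14, against 595 and 565 at day 2, at least 5.11-fold lower. All late arrays of GFD2 and DUS3 were at or below background. ADH6, an NADPH-dependent alcohol dehydrogenase, had 437, 409 and 431 at day 14, against 7372 and 6553 at day 2, a difference of -3.98 ± 0.21. TPA1, a dioxygenase tied to translation termination, had 539.9, 479 and 455 at day 14, against 7465 and 6090.1 at day 2, a difference of -3.74 ± 0.16. ANT1, an ATP carrier of the peroxisome, had 97.0, 112 and 122 at day 14, against 1961 and 1505 at day 2, a difference of -3.78 ± 0.15. The rule that chose these 6 genes required that their arrays not overlap between the days.

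The net change arose both before and after day 5, but not in the same proportion for all lists. Between day 2 and day 5 of BM45, 1244 genes rose (22.8%) and 1846 fell (33.9%), and between day 5 and day 14, 1304 rose (23.9%) and 2351 fell (43.1%). These 2 steps share the day 5 arrays with each other and the outer arrays with the net change, so their values are only set side by side. The 812 genes with a net rise of at least 2-fold had medians of 0.72 for the first step and 0.86 for the second, and the 1450 with a net fall had -0.67 and -0.90. Ergosterol genes had medians of -0.997 and -1.28, with 23 of 24 called lower in each step. Assembly factors of the large subunit had -0.91 in the first step and -0.58 in the second. The large subunit proteins had -0.40 and -0.74. Tricarboxylic acid cycle genes had 0.79 in the first step, with 13 called higher, and -0.02 in the second, whereas chaperones had 0.13 and 0.47, with 17 of 28 called higher after day 5. Glycogen genes had 0.79 and then -0.52, with 8 of 10 called higher by day 5 and 7 called lower after it. HXT5 had 3.56 and then 0.35, most of its rise being early. AGP2 had 0.48 and then 3.36, and ERG20, the farnesyl pyrophosphate synthase, -0.85 and then -2.41, most of both changes being late.

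**Figure D4:**
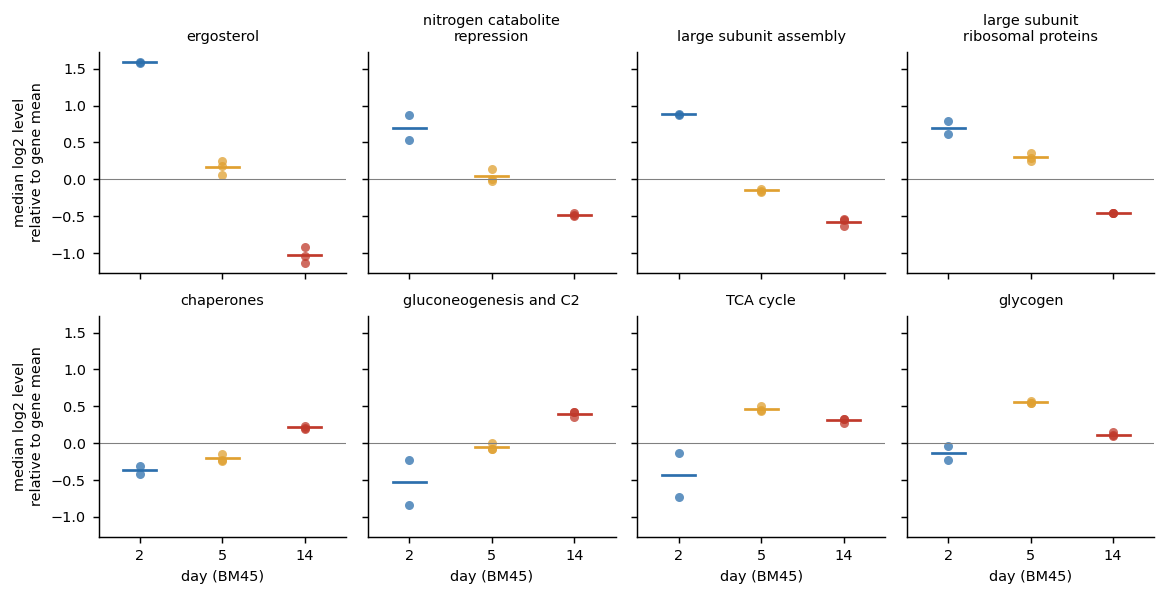
Median log2 level over the genes of 8 lists on each BM45 array at days 2, 5 and 14 (points, n = 2, 3 and 3; bars, mean of the arrays), each gene taken relative to its mean over the 5 arrays of days 2 and 14. The ergosterol and ribosome lists step down both times, chaperones and gluconeogenesis step up, glycogen is highest at day 5, and the 2 day 2 arrays lie far apart for gluconeogenesis and the tricarboxylic acid cycle.

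A comparison of the ends of the fermentation misses genes that moved and came back. In BM45, 40 genes were called at least 2-fold higher at day 5 than at both other days, of which 22 were not called over the whole span, 7 rose and 11 fell. PMA2, a plasma membrane proton pump gene, had 779 and 143 at day 2, 2139, 2641 and 2066 at day 5 and 165, 218 and 182 at day 14. HBT1 had 339 and 142 at day 2, 5402, 6060.2 and 5695 at day 5 and 1446, 1404 and 1338 at day 14. RTN2, a reticulon of the endoplasmic reticulum, had 740.4 and 324 at day 2, 4166, 5032 and 4235 at day 5 and 891, 824 and 888 at day 14. In each the 3 day 5 arrays stood above all others. Another 28 genes were lowest at day 5 by the same measure, of which 13 were not called over the whole span, 7 rose and 8 fell. SPR28, a septin of sporulation, had 953 and 1161 at day 2, 191, 188 and 199 at day 5 and 1148, 1195 and 1252 at day 14, and its net difference was 0.18 ± 0.27 (adjusted p 0.538). YMR244W had 760.0 and 692 at day 2, 132, 113 and 126 at day 5 and 1948, 1898 and 1929.8 at day 14, with all day 5 arrays the lowest. PMA2, RTN2, SPR28 and YMR244W were chosen after their values were seen.

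The second strain, VIN13, gave a comparison that shares no array with BM45. Across the 5449 genes the net changes of the strains had a Pearson correlation of 0.85, a description over genes, which are not independent replicates and whose arrays share platform and must. Of the 2262 genes called at least 2-fold in BM45, 2190 (96.8%) had the same sign in VIN13. These genes were picked for large changes in BM45, and the share over all 5449 genes is not given here. The difference, VIN13 change minus BM45 change, was called higher for 1666 genes (30.6%) and lower for 551 (10.1%), but this split rested on how the arrays were scaled, and became 961 and 1201 under median centring and 1015 and 873 under quantile normalization. Leaving out VIN13 day 2 replicate 1 gave 1787 and 775. Without replicate 4 of BM45 the genes called lower numbered 315. The ergosterol list had a median of -1.45 in VIN13 and -2.56 in BM45, the assembly factors of the large subunit -0.78 and -1.47, and gluconeogenesis 0.72 and 0.97. The difference was called higher for 22 of the 24 ergosterol genes, 27 of the 50 assembly factors and 10 of the 13 seripauperins, whose median was -0.09 in VIN13 and -1.04 in BM45.

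Several of the genes with the largest differences belonged to nitrogen use. GAP1 had 6003, 4649 and 5646 at day 14, against 8379, 8482 and 9347 at day 2 in VIN13, a change of -0.69, against -3.46 in BM45, and the difference was 2.77 ± 0.17 (limma, adjusted p 3.39e-07). UGA4 had 3082, 1981 and 3142 at day 14, against 2106, 3099 and 2837 at day 2 in VIN13, a change of 0.02, against -2.38 in BM45 (difference 2.40 ± 0.34, adjusted p 1.77e-04). VIN13 arrays of UGA4 overlapped between the days while those of BM45 did not, and its choice required no overlap in at least 1 strain. AGP1, a broad amino acid permease, had 6977, 4565 and 6964 at day 14, against 601, 1736 and 375 at day 2 in VIN13, where it rose by 3.02. In BM45 it had 4978, 5354 and 5696 at day 14, against 6279 and 3833 at day 2, and the difference of 0.12 ± 0.50 was not called (adjusted p 0.834; -0.23 without replicate 4). DAL7 had 443, 480.4 and 483 at day 14, against 2616, 1739 and 1843 at day 2 in VIN13, a change of -2.08, against -4.20 in BM45 (difference 2.12 ± 0.23). DCG1 and DAL4 had day 2 levels of 234, 151 and 184 and of 112, 163 and 126 in VIN13, below both BM45 day 2 arrays, and the day 14 arrays of both strains lay below background, so that no sizes are compared. Of the 29 nitrogen catabolite repression genes 14 were called higher in the difference and 1 lower, where 30.6% and 10.1% of all genes were. The split over all genes rested on how the arrays were scaled, and a count for this list under centring is not given here. In the other direction SUC2, the secreted invertase, had 677, 518 and 549 at day 14, against 1010.5, 1378 and 1849 at day 2 in VIN13. In BM45 it had 774, 759.8 and 759 at day 14, against 350.5 and 152 at day 2, so that it fell in VIN13 and rose in BM45 (1.65; 1.09 without replicate 4), and the difference was -2.88 ± 0.35 (adjusted p 6.13e-05). LDS1, a lipid droplet protein of spore formation, had 30.2, 23.8 and 24.0 at day 14, against 24.5, 22.1 and 24.1 at day 2 in VIN13, below background throughout. In BM45 it had 384, 358 and 309 at day 14, against 26.4 and 3.75 at day 2, at least 3.12-fold higher at day 14 (strain difference, adjusted p 6.45e-06). In all, 78 genes were called in opposite directions in the strains, of which 21 rose and 57 fell in BM45.

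**Figure D5:**
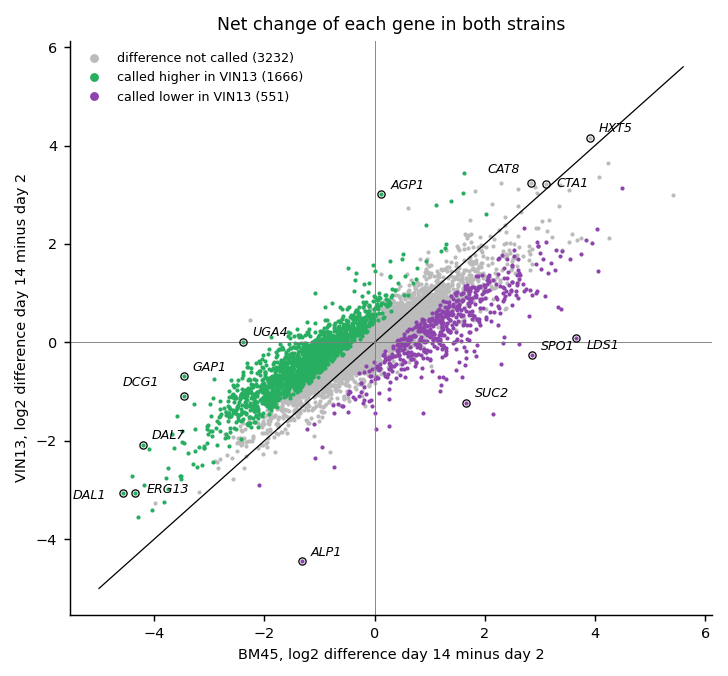
Log2 difference, day 14 minus day 2, of each of the 5449 genes in VIN13 (vertical) against BM45 (horizontal), coloured by whether the difference between the strains was called, with the line of equal change and 14 genes circled. Points follow the line, GAP1, UGA4 and AGP1 lie above it and LDS1, SPO1, SUC2 and ALP1 below it.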

How the data were processed

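Intensity values were used as deposited in the series' value table, 1 value per probe set and array, made with Affymetrix Expression Console per the submitters' processing notes; for its version and summarisation method the sources used here give nothing. Values ran from 0.000233 to 30409 and no column belonged to another sample. Of 10928 probe sets 7245 had an annotated gene and 3683 were not listed. Those naming S. cerevisiae genes numbered 5498 and gave 5449 genes, and 12 symbols were updated. For 47 genes with several probe sets, the one with the highest mean level over all arrays was kept. The 1746 probe sets for S. pombe set the background bound.

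Groups came from the labels. log2(intensity + 16) of all 17 arrays was fitted with group means in limma 3.58.1 (R 4.3.3; 11 residual degrees of freedom, 3.806 prior degrees of freedom, prior SD 0.158), tested on simulated data beforehand, with p-values adjusted over all genes. Tables were handled with pandas 2.3.3 and numpy 2.4.6 in Python 3.11.15, and plots were drawn with matplotlib 3.10.9. The rule for named genes took the 15 largest called changes in each direction with no overlap between the days and the brighter day above background, up to 4 called genes of each list with the largest change, and the 8 largest called strain differences in each direction; further genes, such as HMG2, OLE1, HSP26 and SOD2, were named after their values were seen. The comparison and the gene lists were chosen with earlier results of these data known, and a few wrong list members were removed after values were seen. Alternatives included centring, quantile normalization, array weights, ACT1 ratio as a covariate, other pseudocounts and leaving out each array. A planned search for promoter motifs was not run.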

Additional observations from a re-analysis of the deposited data

Results flagged for a closer look

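The change from day 2 to day 14 differed between VIN13 and BM45 by a direct test of the difference (limma, Benjamini-Hochberg adjusted) in 20 named genes, given here. The difference, VIN13 change minus BM45 change, was positive for AGP1 (2.90), GAP1 (2.77), UGA4 (2.40), DCG1 (2.36), DAL4 (2.18), DAL7 (2.12), AAH1 (2.09), the adenine deaminase gene, and UPF3 (2.07), a factor of nonsense-mediated decay. AAH1 had 677, 575 and 545 at day 14, against 2444, 1416 and 1461 at day 2 in VIN13. In BM45 it had 231, 246 and 232 at day 14, against 3569 and 2548 at day 2, falling further than in VIN13.

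The difference was negative for YLR031W (-3.62), LDS1 (-3.57), ALP1 (-3.12), SPO1 (-3.12), SUC2 (-2.88), ECM34 (-2.73), YLL066W-B (-2.70), ZNF1 (-2.65), YDR222W (-2.32), CIC1 (-2.16), MUP1 (-2.06) and YAR064W (-2.06). ALP1, an arginine permease, had 44.4, 44.1 and 44.4 at day 14, against 1168, 1215 and 1525 at day 2 in VIN13. In BM45 it had 58.4, 92.8 and 70.7 at day 14, against 296 and 142 at day 2, so that the day 14 arrays of both strains lay below background and the sizes of the falls cannot be compared. ZNF1, a transcription factor of respiratory growth, had 0.00340, 0.338 and 5.36 at day 14, against 0.135, 0.00494 and 7.18 at day 2 in VIN13. In BM45 it had 404, 456 and 439.9 at day 14, against 101 and 29.7 at day 2. In BM45 the day 14 mean of DCG1, DAL4 and ALP1 and the day 2 mean of YLR031W, LDS1, SPO1, ECM34, YLL066W-B, ZNF1 and YAR064W lay below background, so the differences of these 10 genes are fitted values and not measured sizes. ZNF1 was below background on all arrays of VIN13 at both days. Without replicate 4 of BM45 day 2 the difference of YLR031W was -1.47 (limma, adjusted p 0.109) and no longer called, and those of YLL066W-B and MUP1 were -1.16 and -1.13, both still called. The other 17 genes also stayed called without it.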

How the results depend on the processing

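For BM45 day 14 against day 2, the genes called higher numbered 1260 to 2251 and those called lower 2032 to 2699 over all alternatives that kept every size of change, against 1571 and 2538. Counting only changes of at least 2-fold left 812 and 1450. With the replicate block the counts were 1453 and 2560. Deviations of same-numbered arrays from their group means had correlations of -0.375 to 0.644 (median 0.0214). Those of number 2 were over 0.1 in 9 of 10 pairs, but 0.015 between the day 14 and day 2 arrays of BM45, which share no other number, and the numbers were not taken to pair arrays. For the strain difference, centring gave 961 higher and 1201 lower, quantile normalization 1015 and 873, and an adjusted p under 0.01 left 277 lower. The replicate block gave 260 lower, and leaving out an array gave 315 (without BM45 day 2 replicate 4) to 1014 (without replicate 2). For day 5 against day 2, the ACT1 covariate gave 758 higher, array weights 806 higher and 1207 lower, and leaving out an array gave 708 (without replicate 4) to 1617 higher (without replicate 2). Reversed genes were SCW11 (-0.0816) and FLO10 (-0.0371), each without replicate 4, also when the array of highest ACT1 ratio was left out of day 2 in each strain, and AGP1 (-0.23 in the same cases, -1.10 with the ACT1 covariate). Leaving out an array gave -0.0816 to 1.92 for SCW11, -0.0371 to 1.98 for FLO10 and -0.23 to 0.48 for AGP1. The cause was not tested. Of the named genes and list medians, 4432 values kept direction and call or stayed within the spread, 83 gene calls were lost, 17 of them with the ACT1 covariate and 10 without BM45 day 2 replicate 4, and 200 list medians moved. With the ACT1 covariate DHH1 was at 2.78, DED1 at 1.84 and ADR1 at 2.27. The day 2 group of 2 arrays limits precision; near-identical genes may share signal; and intensities near background give only bounds.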

Other observations

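Of 26 genes of sulphate assimilation and methionine synthesis 13 fell and 9 rose, near the shares of all genes, 46.6% and 28.8%. The median was -0.46, and -0.57 without replicate 4. MET6, the methionine synthase, had 3073, 2957 and 3050.3 at day 14, against 12138 and 9118 at day 2, a difference of -1.79 ± 0.15 (limma, adjusted p 4.17e-08), and CYS4, the cystathionine synthase, 2153, 2069.7 and 2233 at day 14, against 9983 and 7234 at day 2, a difference of -1.97 ± 0.16. MET13, a methylenetetrahydrofolate reductase, rose most, with 669, 722 and 873 at day 14, against 294 and 55.7 at day 2 (2.36 ± 0.54; 1.31 without replicate 4). The transcription factor genes MET28 and MET32 also rose, MET28 with 2995, 3801 and 2898 at day 14, against 799 and 622 at day 2 (2.16 ± 0.30) and MET32 with 5627, 5626 and 5944 at day 14, against 1449.8 and 2094 at day 2 (1.71 ± 0.27). MET4, the central activator, had 2854, 2728 and 2706 at day 14, against 1379.6 and 1439 at day 2 (0.96 ± 0.11). In none of these 6 genes did the days overlap. Of all genes, 32.6% had every day 14 array above both day 2 arrays and 50.4% had every one below. In purine synthesis 7 of 19 genes rose and 7 fell, 6 rose and 6 fell without replicate 4, and genes of the branch to GMP were among those that fell: GUA1, the GMP synthase, had 838, 994 and 933 at day 14, against 4874 and 4876 at day 2 (-2.39 ± 0.23), and IMD4, an IMP dehydrogenase whose relatives may share signal, 304, 356 and 351 at day 14, against 1934 and 1778 at day 2 (-2.41 ± 0.26). ADE12, which leads to AMP from the same precursor, had 5183, 5452 and 5376 at day 14, against 1609.9 and 1300.3 at day 2 (1.87 ± 0.12).

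Iron genes were likewise divided, with 7 of 25 higher and 9 lower, where 28.8% and 46.6% of all genes were. The median was 0.27, and -0.24 without replicate 4. FTR1, the high-affinity iron permease, had 115, 155 and 129 at day 14, against 1278 and 1269.6 at day 2, a difference of -3.12 ± 0.14 (adjusted p 1.74e-10), and ISU1, a scaffold of iron-sulphur cluster assembly, 9757, 9716 and 10071 at day 14, against 2915 and 1476 at day 2, a difference of 2.24 ± 0.23. Of 25 genes of autophagy and vacuolar proteolysis 11 rose and 6 fell, and 8 rose and 7 fell without replicate 4. ATG1, the kinase that starts autophagy, had 3893, 4499 and 4476 at day 14, against 1335 and 712 at day 2 (2.12 ± 0.30), while the vacuolar peptidases APE1 (-1.09; -0.70 without replicate 2), LAP3 (-0.91) and PRC1 (-0.90) fell. Of 17 genes of higher alcohols and esters 10 fell and 2 rose, 9 fell and 2 rose without replicate 4, and under centring 6 fell and 5 rose. EEB1, an ester synthase, had 1684, 1636 and 1550.3 at day 14, against 8605 and 8161 at day 2 (-2.36 ± 0.10). Of 27 meiotic genes 12 rose and 5 fell, and 10 rose and 6 fell without replicate 4. DMC1, the meiotic recombinase, had 1138, 1419 and 1232 at day 14, against 243 and 209 at day 2 (2.40 ± 0.14), and NDT80, the activator of middle meiosis, 50.6, 44.4 and 52.7 at day 14, against 278 and 244 at day 2, at least 2.37-fold lower. The summed intensity of the 4 measured spore markers was 9050 to 9403 at day 14, against 6506 to 8466 at day 2, with DIT2 and SPS4 below background on both days. That of 9 markers of haploid cells was 3939 to 3975, against 2187 to 2358. Of these BAR1 and AGA2 lay below background on both days, STE3, MFA2 and HO only at day 2, and STE6 only at day 14. Such sums weigh the brighter probe sets most. Of 18 genes of mating and haploid cells 7 rose and 7 fell.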
